A study of Arabidopsis thaliana with 12 samples.

Results

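The iron deficiency response of wild-type Arabidopsis thaliana shoots was measured in 6 of the 12 RNA-seq libraries of the study, 3 from plants on iron-deficient medium and 3 from plants on iron-sufficient medium. The 6 were chosen by genotype, wild type (Col in the titles), and every gene of the count table entered the comparison. All plants spent 12 days on B5 medium and then 3 days on deficient or sufficient medium, at 22 °C with 16 hours of light and 8 hours of dark. The other 6 libraries came from clf, a mutant of CURLY LEAF, a subunit of the Polycomb complex that places repressive histone marks. They shared the filter on low counts, the scaling and the estimate of the spread between libraries. They also entered the test of a difference between the genotypes in their response to iron. The iron response of clf alone was tested only to be set beside that of wild type. No source used here says whether the replicates came from separate cultures, so the p-values measure the spread between these libraries, which may be technical.

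Iron is taken up by the root and carried to the shoot, where most of it ends in chloroplasts, as iron-sulfur clusters, heme and single or paired iron ions in enzymes. A small group of basic helix-loop-helix transcription factors and the ubiquitin ligases that restrain them set the uptake and movement of iron in plants short of it. Leaves short of iron turn pale, since chlorophyll synthesis and photosystem I need iron. The shoot libraries therefore bear on 2 kinds of gene, those that handle iron and those whose products use it or depend on what it does.

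The source name, the titles and the design text call the tissue shoot, whereas 1 label and the RNA protocol say root. Leaf genes were abundant in all 6 libraries. The 8 leaf mesophyll markers summed to 57338, 53755 and 54799 CPM in deficient shoots, against 75852, 79307 and 76957 CPM in sufficient shoots (CPM, counts scaled to a common library total, with TMM factors). The 18 root markers summed to 608, 469 and 589 CPM in deficient shoots, against 785, 647 and 513 CPM in sufficient shoots, and most of that was PYK10, a beta-glucosidase. The cell-wall expansin EXPA7, a root-hair gene, lay between 0 and 1.03 CPM in deficient shoots and between 0.332 and 1.22 CPM in sufficient shoots. None of the 18 root markers passed the test of iron supply (edgeR), none had an unadjusted p under 0.05 and DESeq2 called none. None of 8 epidermis, 9 guard cell, 8 phloem or 7 xylem markers passed it either; unadjusted, 3, 1, 1 and 1 of them did, and DESeq2 called 1, 0, 1 and 0. In bulk tissue, fewer cells of a type and less RNA per cell cannot be told apart.

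At 3 libraries a group the precision is set mainly by the spread between replicates, whose common biological coefficient of variation was 0.308. Library size followed the treatment. The 3 deficient libraries held 23765574 to 26830488 counts and the 3 sufficient libraries 16092041 to 19591512, so low counts were better resolved on deficient iron. One library of each group stood apart from its replicates: replicate 2 on deficient iron and replicate 3 on sufficient iron. Both had high jasmonate genes and high genes of cold and heat stress. The median jasmonate gene, relative to the mean of the sufficient libraries on a log2 scale, was at 0.64 in deficient replicate 2 and at -0.47 and -0.84 in the other deficient libraries. It was at 1.75 in sufficient replicate 3 and at -0.84 and -0.83 in the other sufficient libraries. The main counts of genes are therefore also given without these libraries where they moved by more than 1.5 times.

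Of 32678 genes in the table, 19148 carried enough reads to be tested. On deficient iron 882 genes rose and 865 fell (edgeR quasi-likelihood test, Benjamini-Hochberg adjusted p under 0.05), which is 4.61% and 4.52% of the genes tested. At least 2-fold changes were found for 353 of the genes that rose and 309 of those that fell, and at least 8-fold changes for 74 and 25. The largest changes were increases of genes almost silent on sufficient iron, and the largest losses of transcripts were of abundant photosynthesis genes. The median log2 fold change (deficient minus sufficient) of all tested genes was 0.007, and 50.5% of the called genes were higher. On the authors' FPKM values, which carry no such scaling to a common median, the median was 0.242 and 84.9% of the genes called by limma were higher, so log2 changes on that scale are to be read against 0.242. Of the genes tested, 28.3% had 3 deficient values that did not overlap the 3 sufficient ones, and so did 1743 of the 1747 called genes. The 25 largest increases and 25 largest decreases named below were picked only among genes without overlap. For those genes the lack of overlap is no added evidence. Since nearly all called genes lack overlap, it adds little for any other called gene, and below it only describes the values. Without the 2 libraries that stood apart 669 genes rose and 588 fell, and 539 and 527 of these were also called with all libraries.

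**Figure D1:**
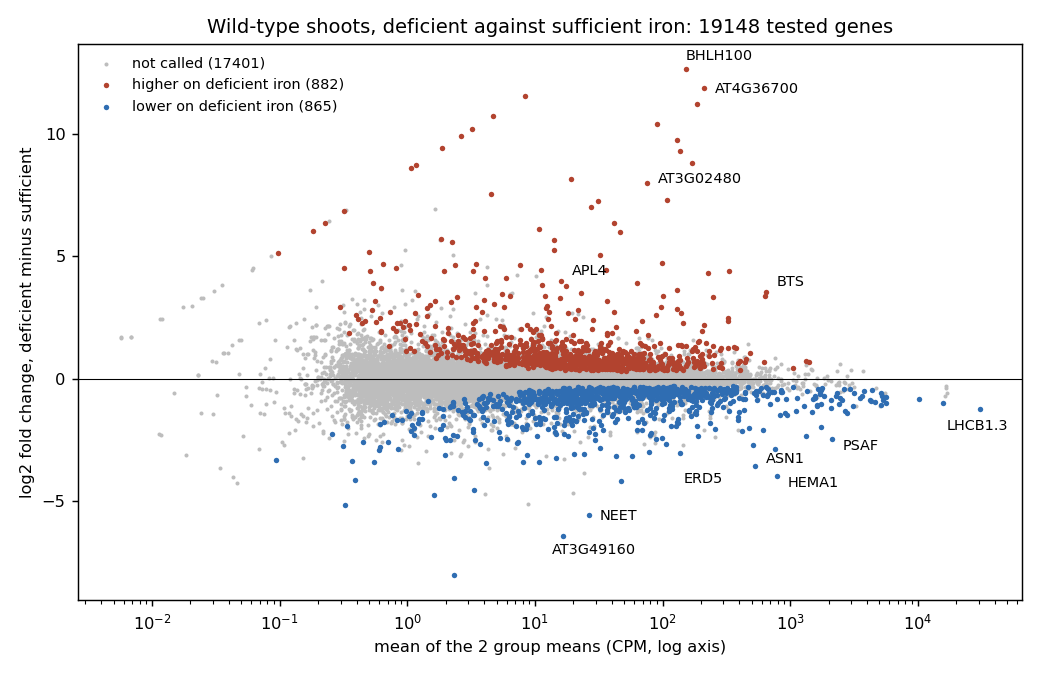
Log2 fold change of each of the 19148 tested genes in wild-type shoots (deficient minus sufficient iron, vertical axis) against the mean of the 2 group means in CPM (log axis). Each point is 1 gene, red for the 882 that rose, blue for the 865 that fell and grey for the rest. Above 1000 CPM, 3 called genes lie over the zero line and 50 under it, and the largest increases lie at intermediate levels.

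Called genes were unevenly spread over 41 lists of genes with a shared function. The lists were chosen with earlier results of these data known, so their shares describe these lists and are not a test of them. Ferritins and vacuolar iron sinks had 6 of 8 tested members lower, photosystem and light-harvesting genes 37 of 50, sugar starvation markers 14 of 26, and genes of chlorophyll and heme synthesis 12 of 28 (7 without the libraries that stood apart). The count for chlorophyll and heme synthesis was between 5 and 12 when single libraries were left out, and every wild-type library except deficient replicate 2 cut it by more than 1.5 times. Iron signalling had 12 of 18 members higher and aliphatic glucosinolate synthesis 10 of 18. These shares stand beside 4.52% of all tested genes lower and 4.61% higher. Some lists of stress and hormone genes stood at or near that background. Cold and heat stress had 0 of 26 called by edgeR (DESeq2 called 2, and 3 had an unadjusted edgeR p under 0.05). Jasmonate had 2 of 32 higher, ethylene 1 of 24 higher and phosphate starvation 1 of 21 higher. Without the libraries that stood apart, the numbers higher were 1 for cold and heat stress, 2 for jasmonate (and 1 lower), 0 for ethylene and 1 for phosphate starvation.

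**Figure D2:**
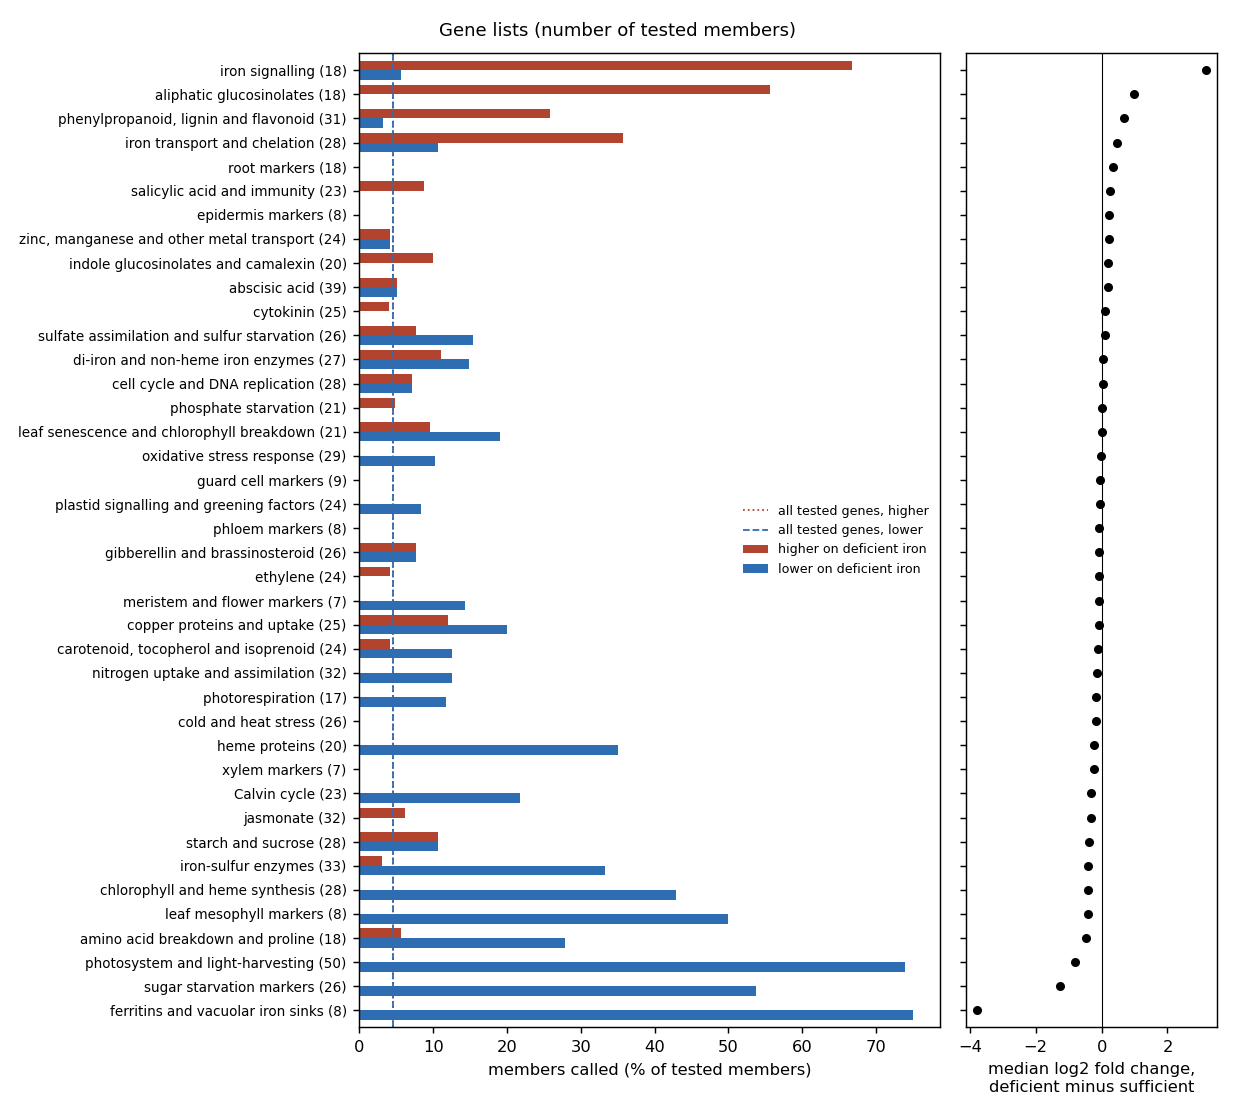
Share of tested members called higher (red) or lower (blue) on deficient iron in each gene list with at least 7 tested members, the number of which is in brackets. Seed markers, with 2 tested members, are not drawn. The 2 vertical lines mark the shares over all tested genes, 4.61% and 4.52%, and the right panel gives the median log2 fold change (deficient minus sufficient). Among the lists drawn, iron signalling stands at the top with 12 of 18 members higher, and the ferritins and vacuolar iron sinks at the bottom with 6 of 8 lower.

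Among enzymes that hold iron-sulfur clusters, 11 of 33 tested genes fell and 1 rose, and 8 and 1 did so without the 2 libraries that stood apart. Their median log2 fold change was -0.40, against 0.007 over all genes tested. The losses covered the citric acid cycle, respiration, purine synthesis and sulfur reduction. ACO3 (AT2G05710, chromosome 2, 2141329 to 2146678 in TAIR10.1), a mitochondrial aconitase, stood at 82.1, 45.0 and 49.2 CPM in deficient shoots, against 194, 196 and 216 CPM in sufficient shoots. Every deficient value was below every sufficient one. It fell by 1.78 on the log2 scale (SE 0.25, edgeR adjusted p = 0.00197). SDH2-1 and SDH2-2 encode the iron-sulfur subunit of respiratory complex II, succinate dehydrogenase. SDH2-1 (AT3G27380) had 13.8, 12.0 and 12.3 CPM in deficient shoots, against 29.5, 31.3 and 43.6 CPM in sufficient shoots, and SDH2-2 (AT5G40650) had 8.36, 8.87 and 12.0 CPM in deficient shoots, against 23.8, 23.5 and 27.8 CPM in sufficient shoots. The groups did not overlap for either gene, and the decreases were 1.45 (SE 0.18, edgeR adjusted p = 0.000774) and 1.36 (SE 0.19, edgeR adjusted p = 0.00177) on the log2 scale. ASE2, the enzyme of the first step of purine synthesis, fell by 1.68 (SE 0.22, edgeR adjusted p = 0.00139).

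The other subunits of mitochondrial respiratory complexes did not follow SDH2. Of 56 tested genes of these complexes 5 rose (8.9%) and 3 fell (5.4%), beside 4.61% and 4.52% of all tested genes. Of the 3 that fell, 2 were SDH2-1 and SDH2-2. Leaving out single libraries gave 0 to 5 higher and 2 lower, every library except clf deficient replicate 3 moving a count by more than 1.5 times, and without the 2 libraries that stood apart 1 rose and 2 fell. Sulfur reduction went both ways. SIR, the sulfite reductase that holds siroheme and an iron-sulfur cluster, had 234, 156 and 180.4 CPM in deficient shoots, against 479, 454 and 491 CPM in sufficient shoots. APR1, the iron-sulfur reductase one step before it, had 55.7, 40.8 and 54.2 CPM in deficient shoots, against 20.8, 27.0 and 18.5 CPM in sufficient shoots. The 2 neighbouring steps moved in opposite directions without overlap of the groups: SIR fell by 1.32 (SE 0.21, edgeR adjusted p = 0.00339) and APR1 rose by 1.18 (SE 0.22, edgeR adjusted p = 0.00913). UPM1, which makes the precursor of siroheme, fell by 2.105 (SE 0.18, edgeR adjusted p = 7.44e-05), with 24.7, 27.5 and 25.2 CPM in deficient shoots, against 98.4, 91.9 and 143 CPM in sufficient shoots. OASA1, a cysteine synthase with no iron, fell by 1.06 (SE 0.11, edgeR adjusted p = 0.000317).

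A gene for cluster assembly in plastids and 2 genes of iron-holding proteins fell as well. ABCI8, the SUFB subunit of the plastid scaffold, had 37.5, 19.5 and 29.96 CPM in deficient shoots, against 181, 172 and 204 CPM in sufficient shoots, the highest deficient value being well under the lowest sufficient one. It fell by 2.68 on the log2 scale (SE 0.31, edgeR adjusted p = 0.000614). ENH1, annotated as a rubredoxin, an iron protein, had 21.0, 11.9 and 20.2 CPM in deficient shoots, against 146, 149 and 122 CPM in sufficient shoots and fell by 2.97 (SE 0.34, edgeR adjusted p = 0.000501). ABCE2 belongs to a family of cluster-holding ATPases known from yeast to recycle ribosomes, and it fell by 1.802 (SE 0.16, edgeR adjusted p = 0.000112), with 32.0, 30.01 and 33.8 CPM on deficient iron and 117, 109.7 and 107 CPM on sufficient iron.

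Of 20 tested heme protein genes 7 fell and none rose by edgeR or DESeq2 (2 rose at an unadjusted p under 0.05). Their median log2 fold change was -0.24, which on the deposited FPKM scale was 0.011. The 7 comprised catalases, ascorbate peroxidases, a cytochrome c and a haemoglobin. CAT3 (AT1G20620), a catalase, averaged 185 ± 50.6 CPM in deficient and 1344 ± 582 CPM in sufficient shoots (SD, n = 3 each) and fell by 2.86 (SE 0.37, edgeR adjusted p = 0.00125). TAPX, the peroxidase at the thylakoid membrane, fell by 0.67 (SE 0.12, edgeR adjusted p = 0.00835), against 3.06 (SE 0.29, edgeR adjusted p = 0.000161) for SAPX of the stroma. GLB3, haemoglobin 3, was a low transcript at 1.36, 0.534 and 0.517 CPM in deficient shoots, against 3.21, 2.64 and 3.15 CPM in sufficient shoots; it fell by 1.89 (SE 0.37, edgeR adjusted p = 0.0110). Copper genes split, 3 of 25 rising and 5 falling. When single libraries were left out, 2 to 4 rose and 3 to 6 fell, with sufficient replicate 2 and deficient replicate 3 each moving a count by more than 1.5 times. COPT2, a copper uptake transporter among those that rose, had 13.9, 16.6 and 21.2 CPM in deficient shoots, against 6.08, 7.58 and 2.87 CPM in sufficient shoots.

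Among enzymes with 2 iron ions or a single non-heme iron, 3 of 27 tested genes rose and 4 fell, 2 and 2 without the libraries that stood apart. Without single libraries 2 to 3 rose and 2 to 5 fell, with sufficient replicate 3 and deficient replicates 1 and 2 moving a count by more than 1.5 times. BCH1 (AT4G25700, chromosome 4, 13093869 to 13096049), a di-iron hydroxylase that turns beta-carotene into xanthophyll, had 337, 341 and 360.4 CPM in deficient shoots, against 86.8, 77.3 and 61.4 CPM in sufficient shoots. The deficient values lay close together and far above all sufficient ones. BCH1 rose by 2.203 on the log2 scale (SE 0.14, edgeR adjusted p = 9.65e-06). TSO2 (AT3G27060, chromosome 3, 9979841 to 9981620), a small subunit of ribonucleotide reductase that holds the di-iron centre for making deoxyribonucleotides, had 167, 166 and 177 CPM in deficient shoots, against 26.0, 26.3 and 14.8 CPM in sufficient shoots. It rose by 2.93 (SE 0.20, edgeR adjusted p = 1.33e-05), again with no overlap. The second small subunit, RNR2A, rose by 0.82 (SE 0.21, edgeR adjusted p = 0.0372), a call lost when any 1 of 8 libraries was left out. MCM3 was the other member of 28 tested genes of the cell cycle and DNA replication that rose beside TSO2, and SIM and CYCD1;1 fell; without the libraries that stood apart 1 rose and 0 fell. PDS1, an iron enzyme on the way to tocopherol and plastoquinone, had 55.9, 60.3 and 46.1 CPM in deficient shoots, against 119, 119 and 130.02 CPM in sufficient shoots and fell by 1.18 (SE 0.14, edgeR adjusted p = 0.000832).

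**Figure D3:**
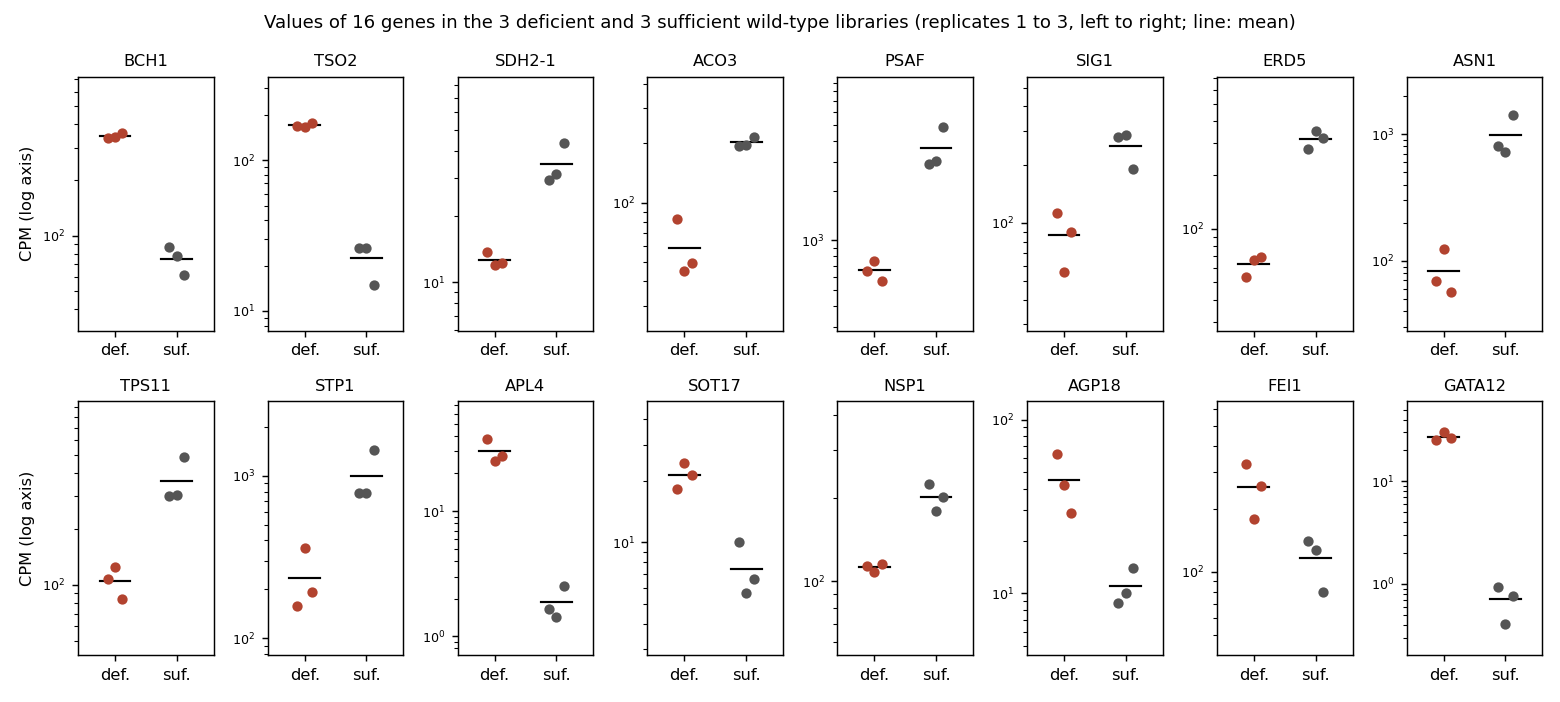
CPM (log axis, each panel its own range) of 16 genes in wild-type shoots, with 3 deficient libraries in red on the left and 3 sufficient libraries in grey on the right of each panel; points are replicates 1 to 3 from left to right and lines are means. The groups do not overlap in any panel, and in STP1 and ASN1 the replicates of a group lie farther apart than in BCH1 or ERD5.

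The photosynthetic apparatus was lower as a whole, with differences between its parts. Of 19 tested chlorophyll a/b-binding protein genes 15 fell, with a median log2 fold change of -0.88. Of 40 tested photosystem subunit genes 25 fell, with a median of -0.69, 19 without the libraries that stood apart and 16 to 25 when single libraries were left out; deficient replicate 1 cut the count by more than 1.5 times. Neither family had a member that rose by edgeR or DESeq2, and 0 and 1 rose at an unadjusted p under 0.05. LHCB1.3, the one with the most counts, had 15245, 22961 and 16610.0 CPM in deficient shoots, against 38252, 38377 and 51270.0 CPM in sufficient shoots, and fell by 1.22 (SE 0.22, edgeR adjusted p = 0.00760). PSAD-2 and PSAN, subunits at the stromal and lumenal faces of photosystem I, had larger decreases. PSAD-2 had 791, 859 and 852 CPM in deficient shoots, against 1909, 2197 and 2349 CPM in sufficient shoots and PSAN had 724, 575 and 832 CPM in deficient shoots, against 2596, 2708 and 2933 CPM in sufficient shoots. They fell by 1.37 (SE 0.12, edgeR adjusted p = 8.49e-05) and 1.95 (SE 0.21, edgeR adjusted p = 0.000319) on the log2 scale, with no overlap between groups. PSBQ-2, of the oxygen-evolving complex of photosystem II, fell by 1.08 (SE 0.13, edgeR adjusted p = 0.000619).

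Photosystem and light-harvesting genes took 12.2, 15.8 and 13.8% of the counts of tested genes in deficient shoots, against 20.8, 20.9 and 24.0% in sufficient shoots. Summed on the TMM-scaled CPM, they stood at 116213, 154016 and 127727 CPM in deficient shoots, against 225153, 227824 and 288575 CPM in sufficient shoots. The groups did not overlap on either measure, and a two-sided exact permutation test of the summed CPM gave p = 0.1, the smallest value that 3 against 3 libraries allow. Leaf mesophyll markers moved with these genes: 4 of the 8 fell, 3 of them also counted among the photosystem genes. Of the 8, 2 fell without the libraries that stood apart. Between 1 and 4 fell when single libraries were left out, with sufficient replicates 2 and 3 and deficient replicates 1 and 3 cutting the count by more than 1.5 times. The summed levels of the 8 were 53755 to 57338 CPM in deficient and 75852 to 79307 CPM in sufficient shoots. RBCS1A, the Rubisco small subunit, RCA, its activase, and the glycine decarboxylase gene GLDP1 did not pass the test. The part of a change in mesophyll RNA in the photosynthesis result was not tested.

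Other plastid genes moved less. Of 23 tested Calvin cycle genes 5 fell, 1 without the 2 libraries that stood apart and between 2 and 6 when single libraries were left out. Sufficient replicate 2, deficient replicate 1 and deficient replicate 3 each cut that count by more than 1.5 times. RPE (AT5G61410, chromosome 5, 24683606 to 24686217), ribulose-phosphate 3-epimerase, stood out with 212, 165 and 186 CPM in deficient shoots, against 599.7, 610.4 and 580.3 CPM in sufficient shoots. It fell by 1.67 (SE 0.14, edgeR adjusted p = 7.98e-05), while the other 4 called genes fell by 0.45 to 0.59. TPT, which exports triose phosphate from the plastid, fell by 0.69 (SE 0.10, edgeR adjusted p = 0.00244). Of 17 photorespiration genes 2 fell. Of 43 tested plastid ribosomal protein genes 12 fell and none rose (1 at an unadjusted p under 0.05, none by DESeq2), but 0 were called without deficient replicate 2 and sufficient replicate 3. That count was between 1 and 12 when single libraries were left out, and each of the 6 wild-type libraries, clf sufficient replicate 2 and clf deficient replicate 1 cut it by more than 1.5 times. EMB3105, the one with the smallest p, had 179, 223 and 252 CPM in deficient shoots, against 321, 373 and 456 CPM in sufficient shoots and fell by 0.82 (SE 0.16, edgeR adjusted p = 0.0121). Cytosolic ribosomal protein genes showed no such pattern, with 5 of 164 higher and 4 lower, 1 and 0 without the libraries that stood apart; without single libraries these counts ran from 0 to 6 and from 0 to 5, every library except deficient replicate 2 and clf deficient replicate 3 moving one by more than 1.5 times.

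Of the 28 tested genes of chlorophyll and heme synthesis, 12 of which fell, 1 had a positive log2 fold change. HEMA1, the glutamyl-tRNA reductase that begins the pathway, had 129.8, 65.2 and 89.2 CPM in deficient shoots, against 1489.6, 1477 and 1479 CPM in sufficient shoots. It fell by 3.97 (SE 0.33, edgeR adjusted p = 5.82e-05), and every deficient value was far under every sufficient one. GUN5, a subunit of the magnesium chelatase, fell by 0.96 (SE 0.21, edgeR adjusted p = 0.0193), a call lost on leaving out any 1 of 4 libraries. SIG1 (AT1G64860, chromosome 1, 24097736 to 24100970), a sigma factor that directs the plastid RNA polymerase, had 113, 55.7 and 90.3 CPM in deficient shoots, against 279, 283 and 190.2 CPM in sufficient shoots. It fell by 1.54 (SE 0.31, edgeR adjusted p = 0.0139), and SIG2 fell by 0.49 (SE 0.08, edgeR adjusted p = 0.00385). These were the 2 called among 24 genes of plastid signalling and greening. PORA, the reductase of the seedling stage, had 2.32, 4.97 and 3.03 CPM in deficient shoots, against 16.4, 15.4 and 20.7 CPM in sufficient shoots and fell by 2.35 (SE 0.26, edgeR adjusted p = 0.000401), whereas CHLM, a methyltransferase of the magnesium branch, fell by 0.67 (SE 0.09, edgeR adjusted p = 0.00185). Of 21 tested genes of leaf senescence and chlorophyll breakdown 2 rose and 4 fell, 1 and 3 without the libraries that stood apart, with a median log2 fold change of 0.00. Their summed levels overlapped between groups, at 444 to 535 CPM in deficient and 499 to 638 CPM in sufficient shoots. Leaving out sufficient replicate 1 or 2, deficient replicate 2 or 3, any clf sufficient library or clf deficient replicate 1 moved a count by more than 1.5 times. NYC1, chlorophyll b reductase, was among those that fell and had 12.4, 5.34 and 8.27 CPM in deficient shoots, against 68.4, 71.6 and 91.8 CPM in sufficient shoots. It fell by 3.15 (SE 0.30, edgeR adjusted p = 0.000183), and its partner NOL fell by 0.74 (SE 0.13, edgeR adjusted p = 0.00602). Among 24 genes of carotenoids, tocopherol and isoprenoids BCH1 rose, and NPQ1, PDS1 and DXS fell. NPQ1, violaxanthin de-epoxidase of the xanthophyll cycle, had 16.9, 26.2 and 18.9 CPM in deficient shoots, against 51.4, 48.9 and 76.7 CPM in sufficient shoots, so that the hydroxylase rose and the de-epoxidase fell (1.51 on the log2 scale, SE 0.23, edgeR adjusted p = 0.00269).

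Genes that plants short of sugar switch on were lower on deficient iron. Of 26 tested sugar starvation markers 14 fell and none rose (1 at an unadjusted p under 0.05, none by DESeq2). Without the libraries that stood apart 12 fell. The median log2 fold change of the tested members was -1.27. The count was between 7 and 17 when single libraries were left out, and leaving out sufficient replicate 2, deficient replicate 1 or deficient replicate 3 cut it by more than 1.5 times. ASN1 (AT3G47340), asparagine synthetase, had 69.0, 123 and 56.2 CPM in deficient shoots, against 809, 720.0 and 1409 CPM in sufficient shoots. Each sufficient value was several times each deficient one, and the spread within groups was wide. TPS11 (AT2G18700), a trehalose phosphate synthase homologue, had 107, 124 and 84.0 CPM in deficient shoots, against 299, 305 and 484 CPM in sufficient shoots and fell by 1.79 (SE 0.27, edgeR adjusted p = 0.00307). TPS8 and TPS9, of the same class, fell by 0.80 (SE 0.14, edgeR adjusted p = 0.00546) and 0.71 (SE 0.13, edgeR adjusted p = 0.00628).

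Breakdown of amino acids was lower in part. Of 18 tested genes 5 fell, 4 without the libraries that stood apart, and MGL rose. Between 2 and 6 fell when single libraries were left out, with sufficient replicate 2 and deficient replicates 1 and 3 cutting the count by more than 1.5 times. ERD5 (AT3G30775, chromosome 3, 12448636 to 12451556), mitochondrial proline dehydrogenase, had 53.7, 66.3 and 69.1 CPM in deficient shoots, against 278, 352 and 322 CPM in sufficient shoots. The deficient values lay at about the same level and far below the sufficient ones, and ERD5 fell by 2.33 (SE 0.15, edgeR adjusted p = 9.63e-06). IVD, isovaleryl-CoA dehydrogenase of leucine breakdown, had 29.8, 32.4 and 29.998 CPM in deficient shoots, against 73.1, 76.3 and 58.6 CPM in sufficient shoots and fell by 1.17 (SE 0.18, edgeR adjusted p = 0.00292). Nitrate and ammonium uptake and assimilation had 4 of 32 genes lower, ASN1 among them, and NLP7, a nitrate-responsive transcription factor, fell by 0.53 (SE 0.11, edgeR adjusted p = 0.0119).

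Starch synthesis and sugar transport changed at single genes. Of 28 tested genes of starch and sucrose 3 rose and 3 fell, 2 and 3 without the libraries that stood apart. Their median log2 fold change was -0.376, and 10 of the 28 had a positive one. When single libraries were left out 1 to 4 rose, with sufficient replicate 1 and deficient replicate 1 cutting that count by more than 1.5 times. APL4 (AT2G21590, chromosome 2, 9238296 to 9242481), a large subunit of the enzyme that makes ADP-glucose for starch, had 37.6, 25.2 and 27.4 CPM in deficient shoots, against 1.66, 1.42 and 2.52 CPM in sufficient shoots. It was close to silent on sufficient iron and rose by 4.01 on the log2 scale (SE 0.35, edgeR adjusted p = 9.11e-05). APL1, the large subunit most abundant in leaves, had 49.5, 55.5 and 45.4 CPM in deficient shoots, against 71.1, 79.1 and 81.6 CPM in sufficient shoots and fell by 0.62 (SE 0.10, edgeR adjusted p = 0.00412), so 2 genes of the same subunit moved in opposite directions. CINV1, a cytosolic invertase, fell by 0.75 (SE 0.13, edgeR adjusted p = 0.00521). STP1, a hexose uptake transporter, had 158, 358 and 192 CPM in deficient shoots, against 779, 779 and 1434 CPM in sufficient shoots, with deficient replicate 2 and sufficient replicate 3 the highest of their groups. STP1 fell by 2.08 (SE 0.51, edgeR adjusted p = 0.0299), and the call was lost on leaving out any 1 of 4 libraries. SAG29, a SWEET sugar transporter, had 89.8, 41.0 and 77.8 CPM in deficient shoots, against 2.98, 3.92 and 2.59 CPM in sufficient shoots and rose by 4.46 (SE 0.40, edgeR adjusted p = 9.99e-05). Over 52 tested sugar transporter genes 7 rose and 2 fell, 4 and 1 without the libraries that stood apart. The 7 became 1 to 7 when single libraries were left out, sufficient replicates 1 and 2 and deficient replicates 1 and 3 each moving a count by more than 1.5 times.

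Aliphatic glucosinolates are sulfur-rich defence compounds of Brassicaceae made from methionine. Of 18 tested synthesis genes 10 rose, 5 without the libraries that stood apart and 4 to 10 when single libraries were left out; sufficient replicates 2 and 3 and deficient replicates 2 and 3 each cut the count by more than 1.5 times. SOT17, the sulfotransferase of the last core step, had 18.3, 24.5 and 21.4 CPM in deficient shoots, against 10.002, 5.62 and 6.64 CPM in sufficient shoots and rose by 1.52 (SE 0.20, edgeR adjusted p = 0.00124). CYP83A1, a cytochrome P450 of the core pathway, had 271, 270.0 and 272 CPM in deficient shoots, against 162, 141 and 105 CPM in sufficient shoots and rose by 0.99 (SE 0.15, edgeR adjusted p = 0.00301). The groups did not overlap for these genes. Of 8 tested myrosinase and nitrile specifier genes, which act when glucosinolates are broken down, 3 fell, 2 without the libraries that stood apart, and 3 of the 8 had a positive log2 fold change. NSP1, a nitrile specifier, had 114, 108 and 115 CPM in deficient shoots, against 225, 180.0 and 202 CPM in sufficient shoots and fell by 0.85 (SE 0.12, edgeR adjusted p = 0.00186), and NSP5 fell by 0.78 (SE 0.13, edgeR adjusted p = 0.00455). Of 20 genes of indole glucosinolates and camalexin 2 rose, 4 without the libraries that stood apart and 1 to 4 when single libraries were left out, every library except sufficient replicate 3, deficient replicate 2 and clf sufficient replicate 2 moving the count by more than 1.5 times. CYP71A13 was one of the 2, with 6.37, 6.45 and 10.1 CPM in deficient shoots, against 0.553, 0.541 and 0.210 CPM in sufficient shoots and an increase of 4.098 (SE 0.33, edgeR adjusted p = 4.61e-05). CYP71A13 and CYP71A12 are close paralogs, so the split of reads between them is uncertain. CYP71A13 also overlaps AT2G30766, which rose by 6.11, over 572 bases on the other strand, so that reads of these 2 genes cannot be fully told apart either.

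In phenylpropanoid metabolism 8 of 31 genes rose and 1 fell, with and without the libraries that stood apart, and 3 to 9 rose when single libraries were left out, the 3 sufficient libraries and deficient replicates 1 and 3 each cutting the count by more than 1.5 times. 4CL2 and 4CL3 activate coumaric acid for lignin and flavonoids. 4CL2 had 8.29, 7.23 and 11.7 CPM in deficient shoots, against 3.92, 3.18 and 3.01 CPM in sufficient shoots, and 4CL3 had 20.3, 11.5 and 13.7 CPM in deficient shoots, against 4.59, 4.13 and 3.36 CPM in sufficient shoots. They rose by 1.42 (SE 0.21, edgeR adjusted p = 0.00259) and 1.91 (SE 0.34, edgeR adjusted p = 0.00705), each with no overlap between groups. COMT1, an O-methyltransferase of lignin synthesis, had 126, 86.5 and 105 CPM in deficient shoots, against 251, 242 and 203 CPM in sufficient shoots and fell by 1.13 (SE 0.17, edgeR adjusted p = 0.00270). Cytochromes P450 as a family were near the background, with 9 of 146 higher and 5 lower. Without single libraries 5 to 10 rose and 4 to 6 fell, with sufficient replicate 2, deficient replicate 1 and clf deficient replicate 2 moving a count by more than 1.5 times. CYP81D11, a stress-responsive member, fell by 2.00 (SE 0.27, edgeR adjusted p = 0.00141), with 7.99, 13.4 and 12.9 CPM on deficient iron and 49.6, 30.1 and 58.1 CPM on sufficient iron.

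**Figure D4:**
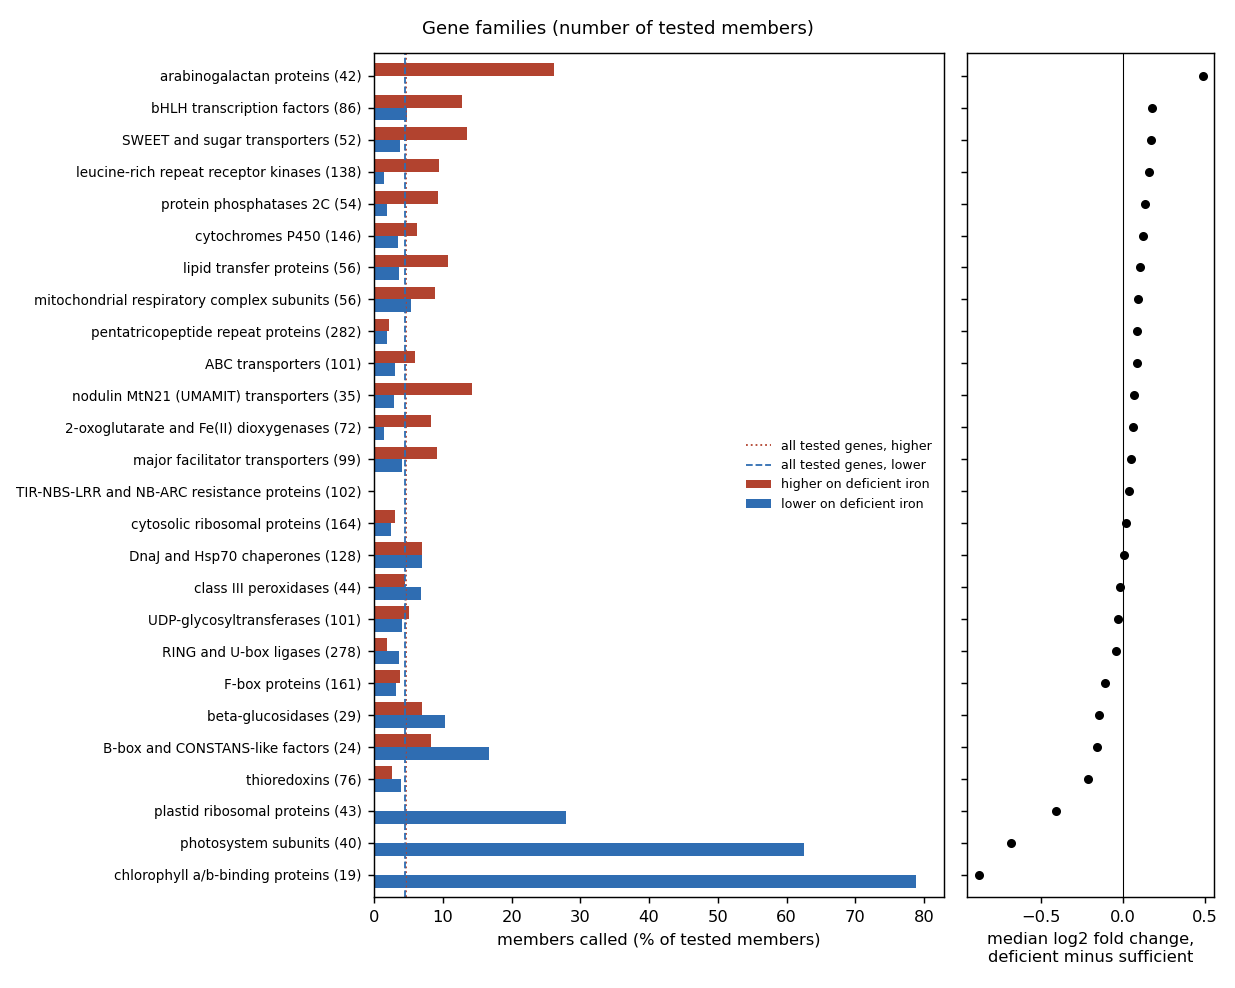
Share of tested members called higher (red) or lower (blue) on deficient iron in the 26 gene families with at least 15 tested members and either 5 called or 100 tested, with the number of tested members in brackets; vertical lines mark the shares over all tested genes, 4.61% and 4.52%. The right panel gives the median log2 fold change (deficient minus sufficient). Arabinogalactan proteins stand at one end with 11 of 42 higher, and chlorophyll a/b-binding proteins at the other with 15 of 19 lower.

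Of the 70 families defined by protein name, arabinogalactan proteins had the highest share of members that rose. These are heavily glycosylated proteins of the cell surface. Of 42 tested 11 rose and none fell (none at an unadjusted p under 0.05 or by DESeq2), with the same counts without the libraries that stood apart, and 8 to 13 rose when single libraries were left out. AGP18 (AT4G37450) had 63.5, 41.8 and 29.0 CPM in deficient shoots, against 8.84, 10.1 and 14.1 CPM in sufficient shoots, and AGP12 (AT3G13520) had 283, 187 and 229 CPM in deficient shoots, against 105, 115 and 103 CPM in sufficient shoots. Every deficient value exceeded every sufficient one for both. AGP18 rose by 2.03 (SE 0.34, edgeR adjusted p = 0.00521) and AGP12 by 1.11 (SE 0.16, edgeR adjusted p = 0.00218). AGP7 rose by 1.53 (SE 0.26, edgeR adjusted p = 0.00571), and the fasciclin-like FLA15 by 1.52 (SE 0.26, edgeR adjusted p = 0.00578).

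Leucine-rich repeat receptor kinases had 13 of 138 members higher and 2 lower, and cysteine-rich receptor kinases 4 of 30 higher and none lower (1 at an unadjusted p under 0.05, none by DESeq2). The count of leucine-rich repeat kinases that rose was between 5 and 14 when single libraries were left out, and sufficient replicates 2 and 3, deficient replicates 1 and 3 and clf deficient replicate 2 each cut it by more than 1.5 times. AT3G03770, a leucine-rich repeat kinase, had 74.9, 43.4 and 54.3 CPM in deficient shoots, against 16.7, 17.59 and 12.9 CPM in sufficient shoots and rose by 1.87 (SE 0.29, edgeR adjusted p = 0.00342). FEI1, a kinase known for its role in cell wall synthesis, had 326, 179 and 258 CPM in deficient shoots, against 141, 127 and 80.2 CPM in sufficient shoots and rose by 1.13 (SE 0.26, edgeR adjusted p = 0.0223), a call lost on leaving out any 1 of 4 libraries. CLV1, the receptor kinase that limits stem cell number in the shoot meristem, fell by 0.81 (SE 0.16, edgeR adjusted p = 0.0123). Enzymes of the wall changed at single genes: EXPA5, the expansin called among 23 (2 were without the libraries that stood apart), had 27.3, 15.7 and 22.6 CPM in deficient shoots, against 6.96, 8.05 and 6.99 CPM in sufficient shoots and rose by 1.57 (SE 0.21, edgeR adjusted p = 0.00134). AT1G67750, annotated as a pectate lyase, had 65.0, 53.8 and 79.1 CPM in deficient shoots, against 8.57, 8.25 and 5.18 CPM in sufficient shoots and rose by 3.17 (SE 0.21, edgeR adjusted p = 1.33e-05). GH9C1, a glycosyl hydrolase, had 36.6, 31.3 and 14.8 CPM in deficient shoots, against 0.718, 0.880 and 0 CPM in sufficient shoots and rose by 5.65 (SE 0.87, edgeR adjusted p = 0.00324). None of 24 tested xyloglucan endotransglucosylase genes passed the edgeR test, 7 did at an unadjusted p under 0.05 and DESeq2 called 5.

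Of 538 tested transcription factor genes 26 rose and 17 fell, beside 9.12% of all tested genes called in either direction. After the basic helix-loop-helix regulators of iron, the largest increase was that of GATA12 (AT5G25830, chromosome 5, 9004236 to 9005941), a zinc-finger factor, with 25.5, 29.97 and 26.5 CPM in deficient shoots, against 0.939, 0.406 and 0.769 CPM in sufficient shoots. It was near silent on sufficient iron and rose by 5.25 on the log2 scale (SE 0.36, edgeR adjusted p = 1.33e-05). ARF18, an auxin response factor, had 45.9, 45.5 and 43.3 CPM in deficient shoots, against 16.7, 18.3 and 23.4 CPM in sufficient shoots and rose by 1.21 (SE 0.13, edgeR adjusted p = 0.000455). BBX27, a B-box factor, had 12.6, 15.6 and 13.4 CPM in deficient shoots, against 39.6, 40.3 and 30.1 CPM in sufficient shoots and fell by 1.41 (SE 0.14, edgeR adjusted p = 0.000221). HB33, a homeobox factor, had 10.9, 11.002 and 11.5 CPM in deficient shoots, against 21.2, 23.5 and 22.2 CPM in sufficient shoots and fell by 1.00 (SE 0.10, edgeR adjusted p = 0.000216). The 48 WRKY genes gave 1 call, WRKY54, which rose by 2.74 (SE 0.54, edgeR adjusted p = 0.0116), and the 102 tested TIR-NBS-LRR and NB-ARC resistance genes gave none (8 at an unadjusted p under 0.05, 3 by DESeq2). DMR6, an oxygenase that hydroxylates salicylic acid, had 85.1, 56.7 and 48.7 CPM in deficient shoots, against 18.3, 16.6 and 17.5 CPM in sufficient shoots and rose by 1.86 (SE 0.18, edgeR adjusted p = 0.000216), 1 of the 2 called among 23 genes of salicylic acid and immunity. In abscisic acid signalling ABF4, a transcription factor, fell by 0.81 (SE 0.09, edgeR adjusted p = 0.000455). It had 18.0, 19.99 and 18.8 CPM on deficient iron and 33.7, 31.6 and 34.0 CPM on sufficient iron. Over the 39 tested abscisic acid genes 2 rose and 2 fell, 3 and 1 without the libraries that stood apart. Their median log2 fold change was 0.183. Small auxin-up RNA (SAUR) genes had a median of 0.62 with 2 of 52 called; their median in single libraries ran from 0.34 to 1.19 in deficient and from -0.55 to 0.38 in sufficient shoots.

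**Figure D5:**
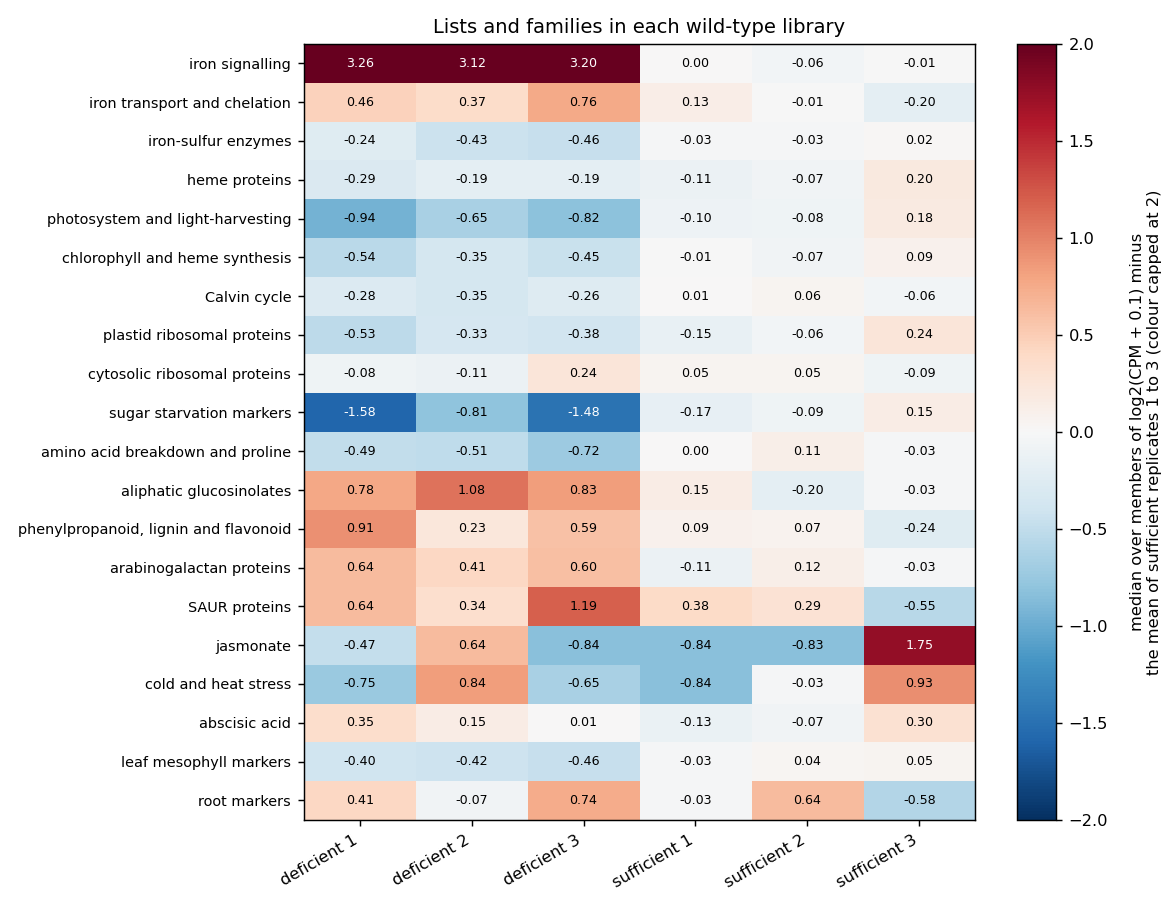
Median over the members of 20 lists and families in each of the 6 wild-type libraries, as log2(CPM + 0.1) minus the mean of the 3 sufficient libraries, with 3 deficient libraries in the left columns and 3 sufficient libraries in the right ones. Photosystem genes and sugar starvation markers are lower in every deficient library, whereas jasmonate and stress genes are high in deficient replicate 2 and sufficient replicate 3.

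Several of the largest changes were in genes with little or no annotation. AT4G36700 (chromosome 4, 17298200 to 17300367), annotated as a cupin, had 473, 406 and 395 CPM in deficient shoots, against 0.0553, 0.203 and 0.0699 CPM in sufficient shoots, a gain of 11.89 on the log2 scale (SE 0.63, edgeR adjusted p = 2.77e-06). AT3G02480, annotated as a late embryogenesis abundant protein, had 173, 214 and 64.0 CPM in deficient shoots, against 0.111, 0.406 and 1.33 CPM in sufficient shoots, a gain of 7.98 (SE 1.41, edgeR adjusted p = 0.00653). AT1G24580, annotated as a RING/U-box protein, had 124, 54.0 and 69.7 CPM in deficient shoots, against 1.16, 1.56 and 0.280 CPM in sufficient shoots, a gain of 6.35 (SE 0.49, edgeR adjusted p = 3.64e-05). All 3 were near zero in every sufficient library and far higher in every deficient one. ORG1, known as a target of the Dof factor OBP3, had 666, 530.5 and 693 CPM in deficient shoots, against 32.8, 30.9 and 24.9 CPM in sufficient shoots and rose by 4.41 (SE 0.16, edgeR adjusted p = 2.59e-07). AT2G42750, annotated as a DNAJ protein, had 321, 332 and 311 CPM in deficient shoots, against 82.5, 87.6 and 82.0 CPM in sufficient shoots. Its replicates lay closer together than those of most genes named here, and it rose by 1.93 (SE 0.09, edgeR adjusted p = 1.82e-06). The DnaJ and Hsp70 chaperones as a family split evenly, 9 of 128 rising and 9 falling, but 2 to 11 rose and 5 to 9 fell when single libraries were left out, and sufficient replicates 1 and 2 and deficient replicates 1 and 3 each moved a count by more than 1.5 times. J11 was among those that fell, with 65.4, 163 and 71.7 CPM in deficient shoots, against 354, 368 and 520.1 CPM in sufficient shoots. It fell by 2.05 on the log2 scale (SE 0.38, edgeR adjusted p = 0.00887).

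For 11 called genes with 0 counts in every sufficient library, 4 of them among the largest increases, the fold change is a lower bound, computed against 3 counts over the group. AT1G13608, a defensin-like gene, had 8.21, 7.10 and 12.9 CPM in the deficient libraries, at least 148-fold higher. AT1G47405, annotated as a pseudogene, had 5.56, 5.25 and 5.06 CPM, at least 83.2-fold higher. SESA5, a seed storage albumin, had 18.3, 17.36 and 14.2 CPM, at least 261-fold higher. PYL3, of the family of abscisic acid receptors, had 6.26, 7.43 and 5.72 CPM, at least 102-fold higher. AT1G13608, AT1G47405, SESA5 and PYL3 also had 0 CPM on sufficient iron in clf. Only the deficient libraries let these genes pass the filter on low counts. With 0 counts on sufficient iron they could not be found lower. SESA5 and SESA2, a second seed storage albumin, were the 2 tested among 13 seed markers, and both rose. They held no or almost no reads on sufficient iron in either genotype. Only the deficient libraries let them pass the filter on low counts. That both rose therefore followed from the filter and says nothing of seed markers as a group. SESA2 had 48.8, 43.8 and 21.1 CPM in deficient shoots, against 0, 0 and 0.420 CPM in sufficient shoots, a gain of 8.14 (SE 1.52, edgeR adjusted p = 0.0138), a call lost on leaving out either of 2 libraries and without the libraries that stood apart (adjusted p = 0.0552). The other 11, such as the cruciferin genes, carried too few reads to be tested. Among the genes that fell, AT5G14120, a major facilitator transporter, had 256, 255 and 256 CPM in deficient shoots, against 641, 577 and 631 CPM in sufficient shoots and fell by 1.27 (SE 0.14, edgeR adjusted p = 0.000525). AT1G09750, annotated as an aspartyl protease, had 19.7, 44.3 and 25.3 CPM in deficient shoots, against 219, 235 and 273 CPM in sufficient shoots and fell by 3.03 (SE 0.31, edgeR adjusted p = 0.000258). AT4G25030, annotated as a serine/threonine kinase, had 10.7, 13.8 and 10.7 CPM in deficient shoots, against 69.6, 73.0 and 169.8 CPM in sufficient shoots and fell by 3.15 (SE 0.38, edgeR adjusted p = 0.000847).

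Neighbouring genes were sometimes called together. Among 27439 adjacent pairs of annotated protein-coding genes, both were called in 167 pairs, 0.609% of them, of which 117 moved in the same direction and 50 in opposite directions. Among the 19012 pairs adjacent among tested genes alone, both were called in 217, 1.14%, with 155 in the same direction and 62 in opposite directions. The first set of pairs includes genes that were not tested. Over all tested genes 9.12% were called, and whether neighbours were called together more often than unrelated genes was not tested. Runs of 4 were found at 3 places. AT1G13607, AT1G13608, AT1G13609 and AT1G13610, 3 defensin-like genes and a hydrolase on chromosome 1, rose together. In sufficient shoots AT1G13607 and AT1G13608 averaged 0 CPM and AT1G13610 averaged 0.0226 CPM. The sufficient wild-type libraries could not bring these genes past the filter on low counts. They could hardly be called lower, so their shared direction followed largely from the filter. ENODL8, AT1G64650, MGL and BDG1 rose together, each by less than 1 on the log2 scale. NTMC2T4, PP2-A13, PEX11E and AT3G61080 fell together; PEX11E, a factor of peroxisome division, had 4.05, 5.75 and 4.79 CPM in deficient shoots, against 20.004, 15.3 and 25.6 CPM in sufficient shoots and fell by 2.06 (SE 0.21, edgeR adjusted p = 0.000245). PP2-A13 and PEX11E overlap in the annotation, and whether reads were counted by strand is not given in the sources used here, so their reads cannot be fully told apart. SDH2-1, SDH2-2, STP1 and LHCB1.3 each overlap a gene that was not called, over 8.78 to 17.9% of their length.

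Promoters, taken as 250 bases before to 50 bases after the annotated start of each protein-coding gene in the RefSeq TAIR10.1 genome, were searched on both strands for 5 motifs. CACGTG, the G-box bound by many basic helix-loop-helix and bZIP factors, was in 7.68% of all 27437 promoters and 8.95% of those of tested genes. It was in 15.6% of the 347 promoters of genes that rose at least 2-fold and 14.4% of the 305 of genes that fell at least 2-fold. Of the 24 promoters of the genes with the largest increases 10 held it, 41.7%, and of the 25 with the largest decreases 3 did, 12.0%. TATCCA, known from sugar-responsive promoters, was in 16.1% of all promoters, 33.8% of those of genes that fell at least 2-fold and 16.4% of those that rose. It was in 44.0% of the promoters of photosystem and light-harvesting genes and 34.6% of those of sugar starvation markers. GATAA, the core bound by GATA and some MYB-related factors, was in 60.8% of all promoters and 86.0% of those of photosystem genes; it can share bases with TATCCA. AAACCCTA, a motif of ribosomal protein promoters, was in 6.22% of all promoters, 1.64% of those of genes that fell at least 2-fold and 47.0% of those of cytosolic ribosomal protein genes. ACTCAT, known from the promoter of proline dehydrogenase, was in 14.7% of all promoters and 15.3% and 12.8% of those of genes that rose and fell at least 2-fold. It was in 9 of the 24 promoters of the genes with the largest increases, 37.5%. Of the 25 with the largest decreases 3 held it, 12.0%, and of those of sugar starvation markers 23.1% did. A match says only that the letters are present.

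The promoters of 3 of the little-annotated genes above are shown because they are the 3 largest increases outside the gene lists that hold CACGTG, which is in capitals. They run 5′ to 3′ on the strand of the gene: AT4G36700 at chr4:17300318-17300617 on the minus strand with 2 copies, AT3G02480 at chr3:511970-512269 on the plus strand with 3 copies, and AT1G24580 at chr1:8709691-8709990 on the plus strand with 1.
AT4G36700: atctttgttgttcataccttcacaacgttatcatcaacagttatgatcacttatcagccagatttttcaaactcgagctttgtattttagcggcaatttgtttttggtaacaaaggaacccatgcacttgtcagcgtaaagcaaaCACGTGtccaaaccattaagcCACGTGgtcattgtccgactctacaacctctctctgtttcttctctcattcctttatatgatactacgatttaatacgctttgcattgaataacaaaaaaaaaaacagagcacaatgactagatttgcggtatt
AT3G02480: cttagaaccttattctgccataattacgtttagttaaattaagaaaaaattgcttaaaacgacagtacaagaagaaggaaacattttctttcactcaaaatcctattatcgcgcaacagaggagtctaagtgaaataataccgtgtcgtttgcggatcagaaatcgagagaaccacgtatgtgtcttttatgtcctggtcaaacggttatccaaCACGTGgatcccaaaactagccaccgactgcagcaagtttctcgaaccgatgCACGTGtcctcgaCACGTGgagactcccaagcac
AT1G24580: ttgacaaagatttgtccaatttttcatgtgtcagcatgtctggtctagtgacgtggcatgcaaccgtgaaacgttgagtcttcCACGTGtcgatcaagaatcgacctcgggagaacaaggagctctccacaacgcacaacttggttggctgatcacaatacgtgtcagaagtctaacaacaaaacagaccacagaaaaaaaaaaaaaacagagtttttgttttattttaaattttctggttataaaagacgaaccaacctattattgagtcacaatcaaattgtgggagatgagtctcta

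For the genes that fell, the promoters of the 3 largest decreases with TATCCA are shown, the motif in capitals on either strand. They belong to ASN1 at chr3:17441382-17441681 on the minus strand, to NAS3, a nicotianamine synthase, at chr1:2984579-2984878 on the plus strand, and to AT3G43670, annotated as a copper amine oxidase, at chr3:15566817-15567116 on the plus strand, where the motif stands as TGGATA. The ASN1 promoter also holds CACGTG in small letters. NAS3 had 0.957, 0.575 and 0.517 CPM in deficient shoots, against 5.86, 6.50 and 10.2 CPM in sufficient shoots. AT3G43670 had 3.06, 2.18 and 3.20 CPM in deficient shoots, against 22.0, 19.0 and 38.0 CPM in sufficient shoots. The groups did not overlap for either gene, which the rule for the largest decreases required.
ASN1: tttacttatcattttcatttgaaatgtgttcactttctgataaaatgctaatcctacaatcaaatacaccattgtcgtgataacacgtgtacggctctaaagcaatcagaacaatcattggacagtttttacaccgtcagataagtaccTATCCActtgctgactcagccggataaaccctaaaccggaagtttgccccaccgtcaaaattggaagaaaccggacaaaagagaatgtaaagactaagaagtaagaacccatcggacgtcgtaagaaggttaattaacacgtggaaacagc
NAS3: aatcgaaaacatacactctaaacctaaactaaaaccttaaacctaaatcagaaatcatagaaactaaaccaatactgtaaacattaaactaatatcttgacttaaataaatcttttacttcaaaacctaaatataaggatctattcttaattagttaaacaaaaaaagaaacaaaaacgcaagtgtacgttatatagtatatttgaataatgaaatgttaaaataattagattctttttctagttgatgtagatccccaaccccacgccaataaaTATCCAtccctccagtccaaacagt
AT3G43670: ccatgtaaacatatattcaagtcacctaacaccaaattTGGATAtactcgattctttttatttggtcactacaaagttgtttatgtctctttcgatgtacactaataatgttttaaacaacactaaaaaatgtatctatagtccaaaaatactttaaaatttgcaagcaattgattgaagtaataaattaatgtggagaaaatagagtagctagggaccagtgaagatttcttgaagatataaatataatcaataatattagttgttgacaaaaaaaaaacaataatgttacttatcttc

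The response of wild type was set against that of clf in 1 interaction test over the 19148 genes. ERD5 was the 1 gene that passed, 0.00522% of those tested. Its log2 fold change was 2.39 lower in wild type than in clf (SE 0.20, edgeR adjusted p = 0.00357), and it fell by 2.33 in wild type, against a log2 fold change of 0.06 in clf. Of the genes called in wild type, 114 of the 882 that rose and 126 of the 865 that fell were also called in clf in the same direction. The share of all tested genes called in clf is not reported here, so these counts do not measure how far the responses are shared. Median log2 fold changes in wild type and clf were 3.17 and 2.86 for iron signalling and -0.81 and -0.64 for photosystem and light-harvesting genes. They were -1.27 and -0.44 for sugar starvation markers and 0.35 and -0.88 for root markers. The next smallest interaction p-values, of AT1G80440 and AT3G48390, missed the threshold (edgeR adjusted p = 0.0853 and 0.0924), and a p that misses it does not show that the genotypes respond alike.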

How the data were processed

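RNA libraries were made with the TruSeq Stranded mRNA kit, per the labels' protocols. Per the submitters' processing notes, TopHat2 and the TAIR10 build were used; the sources used here name no counting tool and no strand setting. The authors deposited whole-number counts per gene and a table of FPKM. FPKM values served here as an alternative only. The members and gene lists were chosen with earlier results of these data known.

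Counts of all 12 libraries in 4 groups (genotype and iron) were fitted with the quasi-likelihood test of edgeR 4.0.16 in R 4.3.3, with TMM scaling, after filterByExpr (minimum count 10, minimum total 15). This left 19148 genes and 8 residual degrees of freedom. P-values were adjusted over all tested genes by Benjamini-Hochberg, and genes under 0.05 were called. Standard errors are the fitted log2 fold change divided by the square root of its F statistic. CPM are scaled by TMM. Wild-type libraries held 16092041 to 26830488 counts. A fold against a group at 0 used 3 counts over the group as its floor, which covers counting error only. Levels are not compared between genes, since CPM carry gene length.

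Named genes are the 25 largest increases and decreases of at least 5 CPM without overlap, the 15 largest gains and losses in CPM, up to 4 called members per direction of each list or family, called runs of neighbours, and leading transcription factors and interactions. A gene named beyond these was chosen after its values were seen. List symbols were matched to RefSeq TAIR10.1 names, and families were found by product name. On simulated counts for the same comparison, 78% of 50 genes raised 4-fold and 62% of 50 genes lowered 4-fold were recovered, 26% of 50 genes at each 2-fold change, with 4 false calls among 18948 unchanged genes. Replicates differed beyond sampling noise (chi-square per gene 5.67 to 107), so none were merged. Replicate numbers did not pair the samples: same-numbered libraries correlated at 0.326, -0.463 and -0.628 in their deviations from the group means.

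Alternatives were RLE and upper-quartile scaling, no filter, wild-type libraries only, the replicate number as a block, a term for the 4 libraries that stand apart (wild-type deficient 2 and sufficient 3, clf replicate 3 in both conditions), leaving out the 2 wild-type ones or each library in turn, DESeq2 1.42.0, and limma 3.58.1 on log2(FPKM + 0.1) and log2(FPKM + 1). Photosystem shares were also taken without the 10 most abundant genes, and neighbours also among tested genes only.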

Additional observations from a re-analysis of the deposited data

Results flagged for a closer look

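ERD5, the proline dehydrogenase gene, responded differently to iron in the 2 genotypes. Its log2 fold change in wild type minus that in clf was -2.39 (SE 0.20, edgeR adjusted p = 0.00357 for the interaction over 19148 genes). In wild type it was lower in 3 of 3 deficient libraries than in any sufficient one.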

How the results depend on the processing

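The main counts were 882 genes higher and 865 lower. Only wild-type libraries gave 273 and 397, a term for the libraries that stand apart 2165 and 1950, DESeq2 1285 and 1345, log2(FPKM + 0.1) 2556 and 453, and log2(FPKM + 1) 2552 and 455 (84.9% higher on both FPKM scales, against 50.5%). RLE scaling, upper-quartile scaling and no filter stayed within 1.5 times the main counts. Leaving out 1 library at a time gave 372 to 973 higher and 476 to 955 lower; leaving out sufficient replicate 1 (476 and 575), sufficient replicate 2 (399 and 517), deficient replicate 1 (372 and 476) or deficient replicate 3 (443 and 507) cut both counts by more than 1.5 times. With the replicate number as a block 960 rose and 870 fell, and 780 and 784 of the main calls were kept; the numbers did not pair the samples.

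The interaction count was 1, and 1 to 3 when single libraries were left out; it was 3 without sufficient replicate 3, and 97 under both DESeq2 and the term for the libraries that stand apart. The share of photosystem genes in the counts of tested genes fell by 7.99 percentage points on deficient iron, a difference of -7.99, and -4.75 without the 10 most abundant genes. No called gene named among 468 changed direction under any alternative; 253 of 459 were called with wild-type libraries only and 331 without the 2 libraries that stand apart. The cause of these shifts was not tested, except that fits without some libraries had fewer samples. Depth limits the low genes: 13530 identifiers failed the filter on low counts, 8107 of them at 0 in all 12 libraries.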
